A study of Mus musculus with 12 samples.

Results

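The presynaptic vesicle and fusion genes comprised 67 genes of the machinery that docks synaptic vesicles at the membrane, fuses them with it and holds them in reserve. They were chosen by gene symbol and by depth. Of 44345 gene symbols in the count files, 71 matched the families of synaptotagmins, syntaxins, syntaxin-binding proteins, vesicle-associated membrane proteins (VAMPs), synapsins, SV2 glycoproteins, Rab3 GTPases, SNAP-25 relatives, complexins, RIMs and Munc13 proteins. Of these, 67 had at least 10 reads in at least 3 libraries, as did 16978 genes in all. The other 4 were almost unread, with 31 reads of Cplx3, 12 of Syt8, 2 of Cplx4 and 2 of Stx19 over all 6 RNA libraries, while the members of fewest reads were Syt10 with 207, Syt17 with 403 and Unc13d with 835. The symbol pattern also took in Snap91, which encodes the clathrin assembly protein AP180 and not a SNARE, and syntaxins and VAMPs that work inside the cell. The rule used no measured change, though it was set with earlier results of these data known.

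Dorsal root ganglia of lumbar levels L4 to L6 came from C57BL/6 mice, 6 to 8 weeks old, and were taken 24 h after a dorsal column axotomy, which cuts the central axons of sensory neurons in the spinal cord. All groups carried this injury. Treated mice received 12 mg/kg MS275 into the peritoneum with the injury and a further dose 2 h before sacrifice, and the others received the vehicle of Tween80, PEG300 and DMSO on the same schedule. MS275, also called entinostat, inhibits class I histone deacetylases. The RNA came from 3 MS275 and 3 vehicle pools of 2 mice each. ATAC-seq, in which a transposase cuts accessible DNA, was run on 3 MS275 and 3 vehicle samples of 1 mouse each, given here as 1 combined region list per treatment.

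At a chemical synapse, a VAMP on the vesicle and a syntaxin and SNAP-25 on the plasma membrane zip into a SNARE complex that pulls both membranes together. Munc18 proteins (Stxbp genes) hold syntaxin, RIM and Munc13 proteins prime the vesicle, complexins clamp and assist the complex, and synaptotagmins trigger fusion when calcium enters. Dorsal root ganglion neurons make these proteins in the cell body and ship them along their axons to terminals in the spinal cord and brainstem, so the transcripts in the ganglion supply synapses that lie elsewhere.

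The 6 RNA libraries held 34992533 to 60370523 reads in genes. MS275 replicate 1 stood apart in its blood and muscle markers. The 13 skeletal muscle markers summed to 774.6, 105.5 and 115.0 CPM (counts scaled to a common library size, TMM-normalised) in MS275 replicates 1, 2 and 3, against 18.1, 10.1 and 69.6 CPM in vehicle replicates 1, 2 and 3. The 12 neutrophil markers summed to 296.6, 53.8 and 87.9 CPM in the MS275 libraries, against 79.1, 72.2 and 47.2 CPM in the vehicle libraries. Markers of the tissue itself were present in every library: the 19 pan-sensory neuron markers summed to 27928 to 30782 CPM with MS275, against 26642 to 27858 CPM with vehicle. By edgeR, 5.10% of all genes tested rose and 5.89% fell at the threshold used below. Of the 13 satellite glial markers 4 rose and 2 fell. The 12 Schwann cell markers had no call by edgeR, DESeq2 or limma voom. An unadjusted p under 0.05 was reached by 0, 2 and 1 of the 12 in these tools. Without vehicle replicate 1 in edgeR, 1 Schwann cell marker rose and 6 had an unadjusted p under 0.05. Elsewhere, 12 of 13 muscle, 5 of 11 endothelial, 1 of 12 neutrophil, 1 of 2 chromaffin and 1 of 4 spinal cord and brain markers rose, and 0 of 13 macrophage and 0 of 3 erythroid markers passed in edgeR, with 1 macrophage marker at an unadjusted p under 0.05. These counts moved with the tool and the libraries: muscle markers had 0 rises by limma voom and, in edgeR, without vehicle replicate 1 or 2, with 12 at an unadjusted p under 0.05 each time, and 5 rises without MS275 replicate 1. Neutrophil markers had 11 rises without MS275 replicate 2 and 8 with no filter beyond 1 read. Endothelial markers had 0 and 1 without vehicle replicate 1 and 2 in edgeR, with 5 and 6 at an unadjusted p under 0.05. Over all genes the rises moved from 858 to 196 and 127 without vehicle replicate 1 and 2. They were 924 and 1388 without MS275 replicate 1 and 2.

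The comparison of MS275 with vehicle asked whether the release machinery of injured sensory ganglia differed in its transcripts under the inhibitor. Few members changed. Sv2a, Syt7 and Syt17 rose and Vamp3 fell, by edgeR's quasi-likelihood test with a Benjamini-Hochberg adjusted p under 0.05 over all 16819 genes tested. The central fusion genes Snap25, Stx1a, Vamp1, Vamp2, Syt1 and Syt2 did not pass, and their log2 fold changes lay between 0.03 and 0.15. All 67 members were tested. The 3 higher and 1 lower made up 5.97% of members, where 11.0% of all genes tested were called, 5.10% higher and 5.89% lower.

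The members' estimates were small and tightly measured. Their log2 fold changes ran from -0.39 to 0.91, and 53 of 67 lay within 0.2 of 0. The median was 0.04, against 0.00 over all genes, with 44 members above 0 and 23 below. An unadjusted p under 0.05 was reached by 19 members, where 28.5% of all genes reached it. The MS275 libraries lay entirely above the vehicle libraries for 13 members and entirely below for 6, where 15.9% of all genes lay above, 17.9% below and 33.8% did either. For 44 of 67 members (65.7%) the 95% interval of the fold change lay within 1.2-fold of no change in both directions, against 36.7% of all genes, and for 61 of 67 (91%) within 1.5-fold, against 70.8%. The median standard error of the log2 fold change was 0.06 among members and 0.08 among all genes. Summed over the 67 members, the libraries held 13831 to 14402 CPM with MS275 and 13820 to 14034 CPM with vehicle, ranges that overlapped.

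**Figure D1:**
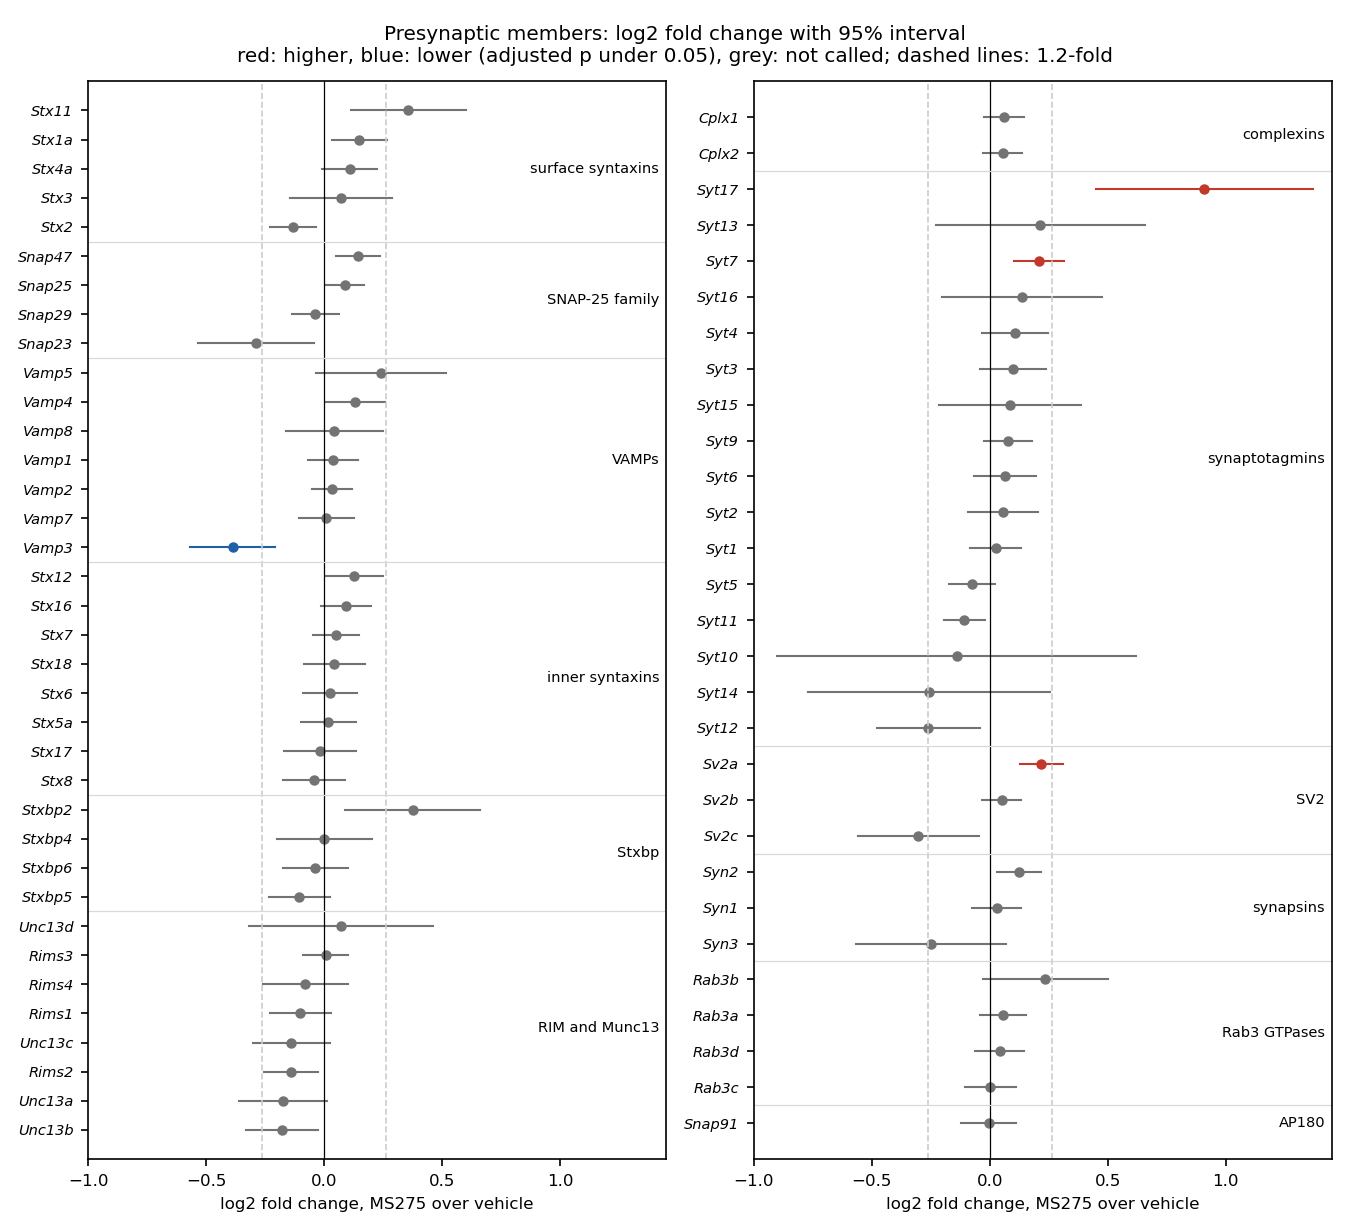
Log2 fold change of 65 members (horizontal axis, MS275 over vehicle, 3 libraries each), grouped by role, with its 95% interval. Red points rose (Sv2a, Syt7, Syt17), the blue point fell (Vamp3), grey points did not pass an adjusted p of 0.05, and the dashed lines mark 1.2-fold. Scaling by neuron markers turned 24 of the 44 positive values among all 67 members negative. It also moved the median of all genes from 0.00 to -0.08.

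The sign of these small values depended on how the libraries were scaled. With libraries scaled by the summed neuron markers the members' median was -0.05, 20 were positive and 47 negative, and 1 rose and 3 fell. Over all 16819 genes that scale gave a median of -0.08, with 356 higher and 1485 lower. With library totals alone the members' median was 0.00, 34 were positive and 33 negative, and 3 rose and 4 fell. All genes then had a median of -0.04, with 680 higher and 1724 lower. Both scales thus moved the median of all genes down from the 0.00 of the main fit. Calls also moved when a library was left out of the edgeR fit. Without vehicle replicate 2 there were 0 called members and 12 with an unadjusted p under 0.05, without vehicle replicate 1 there was 1 higher and 0 lower, and without vehicle replicate 3 there was 1 of each. The count was 3 higher and 2 lower without MS275 replicate 1, 6 and 3 without MS275 replicate 2, and 2 and 0 without MS275 replicate 3. Rises among all genes went from 858 in the main fit to 196, 127 and 336 without vehicle replicate 1, 2 or 3. They were 924, 1388 and 448 without MS275 replicate 1, 2 or 3. Lower genes in all numbered 134 to 1375 over these fits.

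Among the 3 SV2 glycoproteins, transporter-like proteins of the vesicle membrane, Sv2a rose while Sv2b and Sv2c did not pass. SV2A is the binding site of the antiepileptic drug levetiracetam. Sv2a (chr3:96181227-96195183) was measured at 74.8, 74.3 and 75.8 CPM in MS275 replicates 1, 2 and 3, against 63.3, 63.1 and 66.8 CPM in vehicle replicates 1, 2 and 3. The MS275 libraries all lay above the vehicle libraries, with means of 74.9 ± 0.75 and 64.4 ± 2.06 CPM (SD, n = 3 each), 16.4% higher with MS275. The log2 fold change was 0.22 (SE 0.04, edgeR adjusted p = 0.0130), and adjusted p over the 15 alternatives ran from 0.00149 to 0.15. With neuron markers as the scale it was 0.13 (adjusted p = 0.15), and without vehicle replicate 1 or 2 the adjusted p was 0.0675 or 0.0841.

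Sv2c had 107, 151 and 121 CPM in the MS275 libraries, against 172, 153 and 142 CPM in the vehicle libraries. The groups overlapped in that MS275 replicate 2 lay within the vehicle range. Its log2 fold change was -0.30 (SE 0.11, adjusted p = 0.117), and it passed with no filter beyond 1 read (adjusted p = 0.0185). Without MS275 replicate 2 the value was -0.45 (adjusted p = 0.0102), and without MS275 replicate 1 it was -0.19 (adjusted p = 0.208). Sv2b had 284, 288 and 296 CPM with MS275, against 279, 282 and 276 CPM with vehicle, at 0.05 (SE 0.04, adjusted p = 0.399). Its MS275 libraries were all the higher, by a margin that turned to -0.03 with neuron markers as the scale.

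Open regions and start sequences were available for most members. The stretch from 250 bases before to 50 bases after the transcription start, from RefSeq on GRCm38.p6, was held for 51 of the 67 members in 65 entries. Among these 65, 46 (70.8%) carried the GC box GGGCGG, read on either strand, against 35.7% of 32851 promoters of the same length. Their median GC content was 62.3%, against 52.7%, and their median number of CpG dinucleotides 19, against 7. The 32851 promoters came from 27025 genes with no read minimum, while the members had passed a read minimum. A comparison with promoters of other expressed genes was not made. Other motifs searched on both strands were at shares near those of all promoters or rested on few entries: GGACAG in 15 (23.1%, against 22.2%), CACGTG in 8 (12.3%, against 7.2%), TATAAA in 5 (7.7%, against 13.6%), TGACG in 16 (24.6%, against 20.8%) and TGACGTCA, which contains TGACG, in 1 (1.5%, against 1.8%). TTCAGCACC, the left arm of the element bound by the repressor REST, was in 2 (3.1%, Syn1 and Unc13a), against 0.4%. REST is known for keeping neuronal genes silent outside neurons and works with histone deacetylases.

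Shown here are 3 starts: that of Sv2a, since it was the only called member with a RefSeq start in the table, and those of Syn1 and Unc13a, since they held TTCAGCACC. Each runs 5′ to 3′ on the gene's own strand, and capitals mark the GC box, TTCAGCACC, the hexamer GGACAG (the right arm of the REST element) and TGACGTCA in either orientation, with no base in more than 1 of them.
Sv2a, chr3:96180977-96181276 (plus strand): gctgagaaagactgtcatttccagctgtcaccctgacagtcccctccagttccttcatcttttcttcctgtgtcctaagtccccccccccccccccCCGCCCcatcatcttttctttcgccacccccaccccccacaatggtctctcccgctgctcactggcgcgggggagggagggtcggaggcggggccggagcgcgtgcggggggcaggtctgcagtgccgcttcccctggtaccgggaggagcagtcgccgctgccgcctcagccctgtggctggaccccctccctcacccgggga
Syn1, chrX:20920869-20921168 (minus strand): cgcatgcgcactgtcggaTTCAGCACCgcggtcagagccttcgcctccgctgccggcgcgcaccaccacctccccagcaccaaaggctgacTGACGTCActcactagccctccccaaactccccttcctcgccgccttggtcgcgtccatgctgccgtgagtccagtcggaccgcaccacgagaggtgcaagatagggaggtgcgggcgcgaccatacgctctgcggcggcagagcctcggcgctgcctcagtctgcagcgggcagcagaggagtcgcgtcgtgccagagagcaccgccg
Unc13a, chr8:71671708-71672007 (minus strand): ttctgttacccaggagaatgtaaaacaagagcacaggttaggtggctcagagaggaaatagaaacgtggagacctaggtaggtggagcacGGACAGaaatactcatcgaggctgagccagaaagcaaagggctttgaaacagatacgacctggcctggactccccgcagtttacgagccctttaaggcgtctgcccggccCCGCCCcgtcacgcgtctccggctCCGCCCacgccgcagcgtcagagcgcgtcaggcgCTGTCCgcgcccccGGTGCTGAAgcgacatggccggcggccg

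The Sv2a start held 1 GC box and none of the other 3 motifs, in a stretch of 68.0% GC. The Syn1 start held TTCAGCACC and the cyclic AMP response element TGACGTCA and no GC box. The Unc13a start held 2 GC boxes, TTCAGCACC and 2 copies of GGACAG. None of these matches was tested as a binding site. Sv2a rose in the RNA while Syn1 and Unc13a did not pass.

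ATAC regions were read within 1000 bp of a transcription start, or of either gene end for the 16 members with no start in the table, with an overlap of at least 1 bp. The MS275 list held 246602 entries (161788 after merging, covering 80069252 bp) and the vehicle list 277369 (177906 after merging, 92185976 bp), so the vehicle list was the longer one. A region lay at 63 of the 67 members in the MS275 list (94.0%) and at 64 in the vehicle list (95.5%), and all 63 were shared. Of 15982 tested genes matched to RefSeq, 87.7% had a region in the MS275 list and 88.6% in the vehicle list. The MS275 list had a region at 14010 of them, and 13576 had a shared region. Among 15628 tested genes with any entry within 20 kb, the shares were 89.6% in the MS275 list and 90.7% in the vehicle list. Of the 64 members with such an entry, 63 and 64 had a region. Vamp5, Vamp7 and Vamp8 had no entry of either list within 20 kb, and their chromatin is not analysed here. The start of Syt11 had a region in the vehicle list alone, 314 bp wide. At a -log10 q of at least 5, the authors' own score of each region, 55 members had a region in the MS275 list, 60 in the vehicle list and 53 in both. This stricter count was not made over all genes.

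At the 4 called members a region was present in both lists, but at Sv2a the MS275 region had a -log10 q of 1.5, against 7.9 in the vehicle list. At a -log10 q of at least 5, Syt7, Syt17 and Vamp3 kept a region in both lists and Sv2a in the vehicle list alone. Sv2a shared this with members that were not called, among them Syt2, Sv2b and Unc13d. At the same cut Syt12 and Syt13 kept a region in the MS275 list alone. The widest region at the Sv2a start, whose sequence is printed above, measured 388 bp in the MS275 list and 722 bp in the vehicle list, and the whole gene held 3 regions in the MS275 list and 5 in the vehicle list. Syt7 (chr19:10388802-10453181) held 12 regions in the MS275 list and 11 in the vehicle list, Syt17 (chr7:118380713-118448583) 9 in the MS275 list and 12 in the vehicle list, and Vamp3 (chr4:151047305-151057953) 3 in the MS275 list and 2 in the vehicle list. With 1 pooled list per treatment these differences have no replicate check, and the lists themselves differed in length.

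The synaptotagmins were the largest family, with 16 members, of which 2 rose, none fell and 11 had a positive log2 fold change. Over all 16819 genes tested, 5.10% rose, 5.89% fell and 8486 had a positive value. Syt7 encodes a slow, high-affinity calcium sensor known for asynchronous release and for the exocytosis of lysosomes. It had 382, 366 and 365 CPM in MS275 replicates 1, 2 and 3, against 339, 306 and 318 CPM in vehicle replicates 1, 2 and 3. All MS275 libraries were higher, and the log2 fold change was 0.21 (SE 0.05, edgeR adjusted p = 0.0240). The adjusted p ran from 0.00127 to 0.285 over the 15 alternatives, and with neuron markers as the scale the log2 fold change was 0.12 (adjusted p = 0.285). The adjusted p was 0.127 without vehicle replicate 2, 0.0894 without vehicle replicate 3 and 0.0509 without MS275 replicate 3.

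Syt17 encodes a synaptotagmin without a membrane-spanning segment. It was counted with 102, 102 and 54 reads in the MS275 libraries, against 37, 64 and 44 reads in the vehicle libraries, or 2.13, 1.86 and 1.56 CPM with MS275, against 0.81, 1.05 and 1.11 CPM with vehicle. Every MS275 library was the higher once depth was taken into account. At 0.91 (SE 0.21, adjusted p = 0.0248) it had the highest log2 fold change of the members, on 403 reads in all. The adjusted p was 0.102, 0.0933 and 0.0603 when vehicle replicate 1, 2 or 3 was left out.

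The fast calcium sensors did not pass. Syt1 had 291, 267 and 266 CPM with MS275, against 272, 260 and 279 CPM with vehicle, and Syt2 had 386, 460 and 444 CPM with MS275, against 423, 427 and 391 CPM with vehicle. Their 95% intervals on the log2 scale ran from -0.08 to 0.13 for Syt1 and from -0.09 to 0.20 for Syt2, around estimates of 0.03 and 0.06 that were negative with neuron markers as the scale. Syt11, which does not bind calcium and is known for restraining endocytosis, had 1448, 1513 and 1524 CPM with MS275, against 1606, 1616 and 1611 CPM with vehicle. All of its MS275 libraries were lower, at -0.11 (SE 0.04, adjusted p = 0.0982). It passed with library totals alone (adjusted p = 0.0252) and with neuron markers as the scale (0.0434). Syt10 had the fewest reads of any member, at 1.02, 0.58 and 0.46 CPM with MS275, against 0.90, 0.56 and 0.88 CPM with vehicle, and its standard error of 0.34 left its direction unresolved.

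The VAMPs are the SNAREs of the vesicle side, and 1 of 7 fell, where 5.89% of all genes did. Vamp3 (cellubrevin) serves recycling endosomes in most cell types. It had 21.1, 19.7 and 18.3 CPM in MS275 replicates 1, 2 and 3, against 27.5, 26.6 and 23.3 CPM in vehicle replicates 1, 2 and 3. The groups did not overlap, and the log2 fold change was -0.39 (SE 0.08, edgeR adjusted p = 0.0189), with adjusted p from 0.000649 to 0.0934 over the 15 alternatives. It missed the threshold without vehicle replicate 1 (0.0908), vehicle replicate 2 (0.0934) or MS275 replicate 3 (0.0617). The annotated gene Gm38529 overlaps Vamp3, and reads there may be shared.

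The neuronal VAMPs of synaptic vesicles, Vamp1 and Vamp2, did not pass. Vamp1 had 687, 713 and 761 CPM with MS275, against 682, 725 and 699 CPM with vehicle. Vamp2 had 646, 659 and 635 CPM with MS275, against 621, 629 and 645 CPM with vehicle. Both overlapped between groups, with 95% intervals from -0.07 to 0.14 and from -0.05 to 0.12 on the log2 scale, and both estimates, 0.04 and 0.03, turned negative with neuron markers as the scale. Vamp4, a trans-Golgi SNARE, had 167, 158 and 143 CPM with MS275, against 146, 142 and 139 CPM with vehicle (0.13, SE 0.06, adjusted p = 0.156). Vamp5, known from muscle, had 8.13, 6.70 and 6.17 CPM with MS275, against 6.41, 5.47 and 5.95 CPM with vehicle (0.24, SE 0.12, adjusted p = 0.231). Its highest library was MS275 replicate 1, the library with the highest muscle marker sum. Without that library the log2 fold change was 0.12 (adjusted p = 0.513). The part of muscle in the values of Vamp5 was not tested.

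Of the SNAP-25 family, 4 members, none passed by edgeR or limma voom and 3 had an unadjusted p under 0.05. For all genes that share was 28.5% by edgeR. By DESeq2 Snap47 was higher. Snap25, the neuronal partner of syntaxin 1, had 1534, 1539 and 1551 CPM with MS275, against 1435, 1480 and 1433 CPM with vehicle. All 3 MS275 libraries lay above, by a log2 fold change of 0.09 (SE 0.04, adjusted p = 0.144). Snap47, a widely expressed relative, had 186, 173 and 175 CPM with MS275, against 163, 159 and 161 CPM with vehicle. These groups did not overlap either, and the value was 0.15 (SE 0.04, adjusted p = 0.0543 by edgeR, 0.0273 by DESeq2 and 0.0293 by edgeR without MS275 replicate 2). Snap23, the form of non-neuronal cells, had 7.90, 6.55 and 6.63 CPM with MS275, against 8.55, 9.39 and 7.77 CPM with vehicle, at -0.29 (SE 0.11, adjusted p = 0.119). Without MS275 replicate 1 the adjusted p of Snap23 was 0.0467.

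The 6 syntaxins of the plasma membrane had 5 positive log2 fold changes and no call by edgeR or limma voom. An unadjusted p under 0.05 was reached by 3, where 28.5% of all genes reached it by edgeR, and DESeq2 called Stx11 higher. Stx1a, a partner of SNAP-25 at release sites, had 47.4, 49.1 and 47.4 CPM with MS275, against 40.6, 44.2 and 44.9 CPM with vehicle. Its MS275 libraries all lay above the vehicle libraries (0.15, SE 0.05, adjusted p = 0.0896). Stx2 had 110, 118 and 118 CPM with MS275, against 128, 125 and 125 CPM with vehicle. It lay below vehicle in every MS275 library at -0.13 (SE 0.04, adjusted p = 0.0783), and passed with library totals alone (0.0234) and with neuron markers as the scale (0.0371).

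Stx11, Stxbp2 (Munc18-2) and Unc13d (Munc13-4) serve granule release from blood cells, where their loss in humans causes familial hemophagocytic lymphohistiocytosis. Stx11 had 8.07, 8.99 and 8.63 CPM with MS275, against 6.52, 7.57 and 5.90 CPM with vehicle (0.36, SE 0.11, adjusted p = 0.0635). Stxbp2 had 10.7, 7.95 and 8.83 CPM with MS275, against 6.21, 7.76 and 7.14 CPM with vehicle (0.38, SE 0.13, adjusted p = 0.0892). In both, every MS275 library was above every vehicle library. Unc13d had 3.66, 2.80 and 2.46 CPM with MS275, against 2.89, 3.11 and 2.50 CPM with vehicle, and overlapped (0.07, SE 0.17). MS275 replicate 1 was highest for Stxbp2 and Unc13d and had the highest neutrophil sum, 296.6 CPM, and macrophage sum, 200.8 CPM, but it was the lowest of the 3 MS275 libraries for Stx11. Without it the log2 fold change of Stxbp2 was 0.25 (adjusted p = 0.192), the adjusted p was 0.0506 for Stx11, and Unc13d was at -0.10. Stxbp2 passed without MS275 replicate 2 (0.48, adjusted p = 0.0346), and with no filter beyond 1 read both Stxbp2 (0.0475) and Stx11 (0.0493) passed in edgeR. The part of these cells in the values was not tested. In bulk tissue a change in the number of cells of a type and a change in RNA per cell cannot be told apart.

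With all 6 libraries and the read filter no syntaxin-binding protein passed by edgeR, DESeq2 or limma voom. Of the 5 in the family, 1 (Stxbp2) had an unadjusted p under 0.05. Stxbp5 (tomosyn), an inhibitor of SNARE assembly, had 64.9, 71.2 and 66.4 CPM with MS275, against 77.0, 73.3 and 67.6 CPM with vehicle (-0.11, SE 0.06, adjusted p = 0.259), and was at -0.06 without vehicle replicate 1. Stxbp6 was at -0.04 (SE 0.06).

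The 8 RIM and Munc13 genes, which dock and prime vesicles at the active zone, had no call by edgeR, DESeq2 or limma voom. By edgeR 2 of the 8 had an unadjusted p under 0.05, where 28.5% of all genes did. The log2 fold change was negative in 6 and positive in 2, with a median of -0.12, against 0.04 for all members. In 3 of the 8, every MS275 library lay below every vehicle library, as in 17.9% of all genes. Rims2 had 35.7, 36.3 and 35.7 CPM with MS275, against 41.7, 38.2 and 38.8 CPM with vehicle (-0.14, SE 0.05, adjusted p = 0.108). Unc13b had 21.7, 23.2 and 23.8 CPM with MS275, against 27.5, 26.0 and 24.2 CPM with vehicle (-0.18, SE 0.07, adjusted p = 0.118). Unc13a (Munc13-1) had 126, 163 and 157 CPM with MS275, against 171, 169 and 164 CPM with vehicle (-0.17, SE 0.08, adjusted p = 0.201). For Unc13a the gap rested mainly on MS275 replicate 1, without which the log2 fold change was -0.06 (adjusted p = 0.354). Rims1 had 53.9, 61.7 and 57.4 CPM with MS275, against 64.8, 61.8 and 59.0 CPM with vehicle, and the groups overlapped (-0.10, SE 0.06, adjusted p = 0.284). Without MS275 replicate 1 or vehicle replicate 1 Rims1 was at -0.05 or -0.06. Rims2 passed with library totals alone (adjusted p = 0.0483).

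The complexins differed little. Cplx1 had 1244, 1266 and 1299 CPM with MS275, against 1202, 1240 and 1208 CPM with vehicle. Cplx2 had 390, 394 and 390 CPM with MS275, against 388, 372 and 371 CPM with vehicle. Each was above vehicle in all 3 MS275 libraries, at 0.06 (SE 0.04, adjusted p = 0.315) and 0.05 (SE 0.04, adjusted p = 0.374), and each was negative with neuron markers as the scale. No complexin had an unadjusted p under 0.05 or a call by DESeq2 or limma voom.

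Synapsins tether vesicles to one another and to actin in the reserve pool. Syn1 had 435, 471 and 482 CPM with MS275, against 443, 458 and 459 CPM with vehicle, and the groups overlapped (0.03, SE 0.05). Syn2 had 233, 218 and 219.5 CPM with MS275, against 208, 203 and 204 CPM with vehicle. All its MS275 libraries were higher, at 0.12 (SE 0.04, adjusted p = 0.0824), and without MS275 replicate 2 it passed (0.0462). Syn3 had 4.81, 4.97 and 4.00 CPM with MS275, against 6.17, 4.59 and 5.73 CPM with vehicle (-0.25, SE 0.14, adjusted p = 0.276). Each synapsin gene overlaps a gene of the Timp family on the annotation (Timp1, Timp4 and Timp3), and 33 of the 67 members overlap another annotated gene, so that reads in the shared stretches could not be assigned with certainty. None of the 3 passed by edgeR, DESeq2 or limma voom, and 1 had an unadjusted p under 0.05.

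The 4 Rab3 GTPases, which bring vesicles to RIM, and Snap91 had no call and no unadjusted p under 0.05 by edgeR, DESeq2 or limma voom. Rab3a had 410, 400 and 440 CPM with MS275, against 398, 401 and 403 CPM with vehicle (0.06, SE 0.04), Rab3b 18.8, 14.2 and 14.6 CPM with MS275, against 12.3, 13.2 and 15.0 CPM with vehicle (0.24, SE 0.12). Without MS275 replicate 1 Rab3b was at 0.10 (adjusted p = 0.538). Both overlapped between groups, and Rab3d (0.04) did as well, with Rab3a and Rab3d negative under the neuron scale. Snap91, which recruits clathrin to retrieved vesicles, had 294, 329 and 337 CPM with MS275, against 320, 325 and 317 CPM with vehicle, for a log2 fold change of -0.00 (SE 0.05).

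The 8 syntaxins of endosomes, Golgi and endoplasmic reticulum, which work away from the synapse, had no call by any of these tools and 1 unadjusted p under 0.05. Stx12, of recycling endosomes, had 261, 240 and 227 CPM with MS275, against 228, 221 and 216 CPM with vehicle. MS275 replicate 3 lay below vehicle replicate 1, so the groups overlapped (0.13, SE 0.05, adjusted p = 0.152). Stx16, of the trans-Golgi network, had 65.5, 60.6 and 60.7 CPM with MS275, against 57.6, 57.5 and 60.2 CPM with vehicle (0.09, SE 0.05, adjusted p = 0.224). Stx7, of late endosomes, was at 0.05 (SE 0.04) and at -0.03 with neuron markers as the scale. The log2 fold changes of the 8 ran from -0.04 to 0.13.

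**Figure D2:**
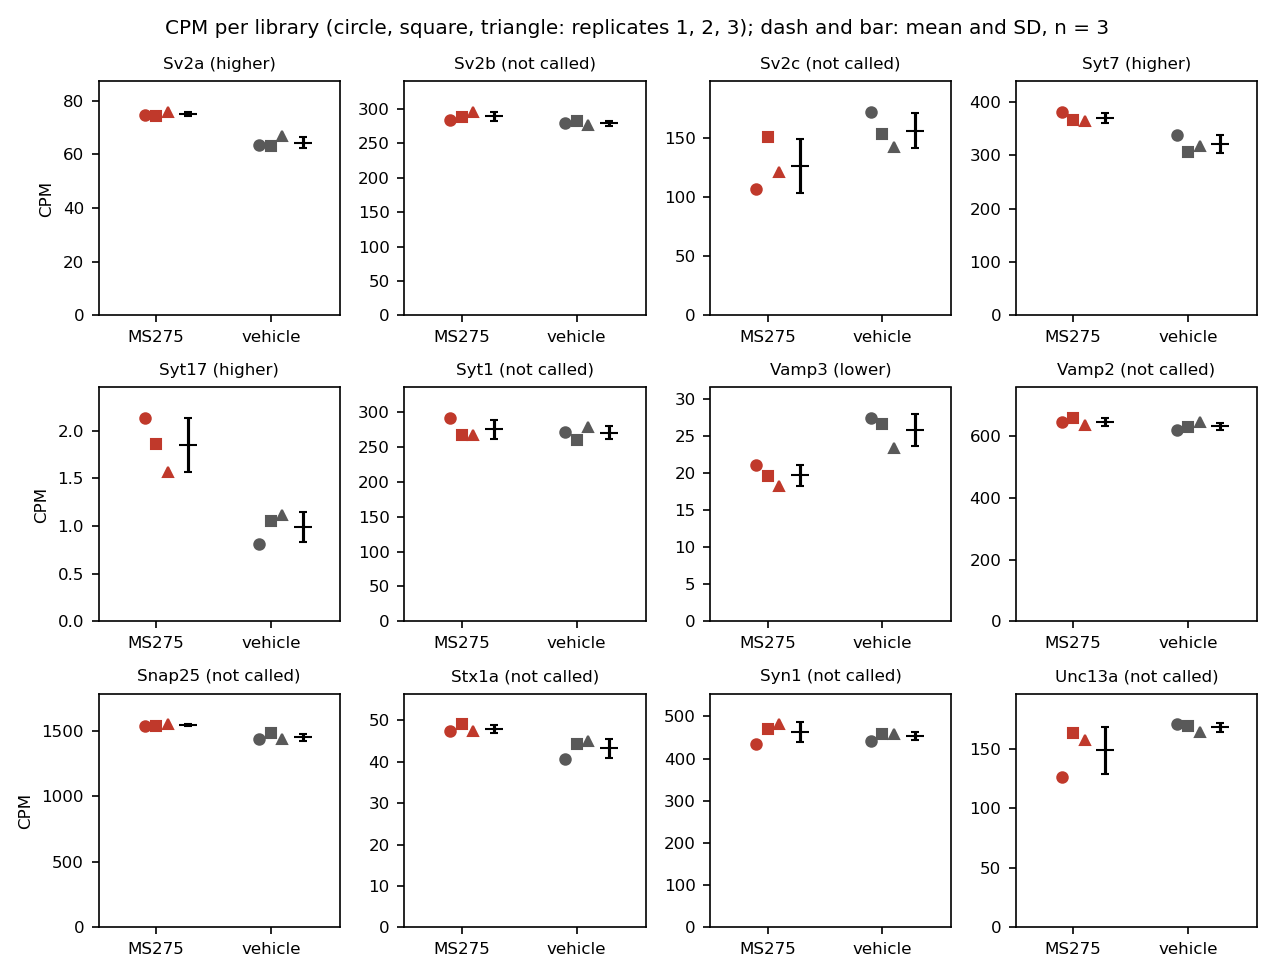
CPM (vertical axis from 0) of 12 members in each MS275 library (red, left) and vehicle library (grey, right), with circle, square and triangle for replicates 1, 2 and 3 and the mean with its SD (n = 3) beside them. Sv2a, Syt7 and Syt17 lay above vehicle and Vamp3 below in every MS275 library, while Syt1, Vamp2 and Syn1 overlapped; MS275 replicate 1 was the lowest library for Sv2c and Unc13a.

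Longer genes among the members tended to have lower log2 fold changes. Across the 67 members the correlation of the log2 fold change with gene length from start to end, introns included, was -0.30 (Spearman) and -0.21 (Pearson on the log of length). Across 15982 genes it was -0.15 and -0.12. These are descriptions across genes that share the same libraries, and no p is attached. The members were long, with a median of 46.5 kb, against 23.2 kb. Of the 20 members over 100 kb, 9 were positive and 11 negative, with a median of -0.02, against -0.03 for 2286 genes of that length. None of the 20 was called by edgeR, where 8.75% of those genes were. Of the 47 members of 100 kb or less, 35 were positive and 12 negative, with a median of 0.05, against 0.01 for 13696 genes, and 4 of the 47 (8.51%) were called, against 11.8% of those genes. The longest 5 were Unc13c (528.7 kb), Rims1 (520.2 kb), Syt1 (513.3 kb), Rims2 (486.1 kb) and Syn3 (450.2 kb).

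**Figure D3:**
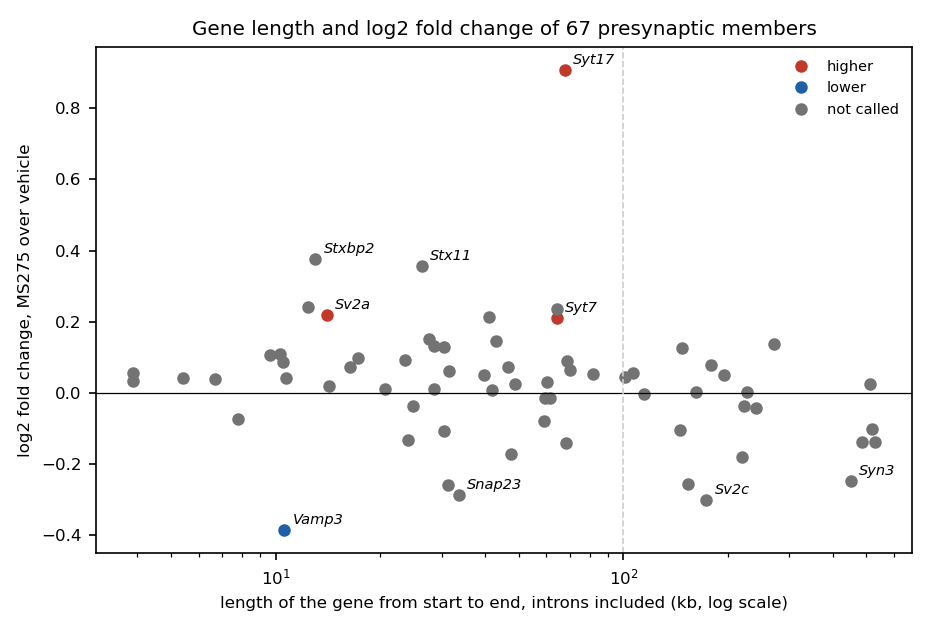
Log2 fold change (vertical axis, MS275 over vehicle) against gene length in kb (horizontal log axis) for the 67 members, with called members in red (higher) and blue (lower), and a dashed line at 100 kb. The 20 members right of the line had a median of -0.02 and no call. The 47 left of it had a median of 0.05 and all 4 calls. Over all genes, 8.75% of the longer and 11.8% of the shorter were called. When neuron markers set the scale, 24 of the 44 positive values were negative, and the median of all genes moved from 0.00 to -0.08.

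Other presynaptic genes outside the symbol pattern were read in 5 lists, 120 tested genes in all. Of these 13 rose and 3 fell (13.3% called, where 11.0% of all genes were), and their median log2 fold change was 0.04. With library totals alone 5 rose and 14 fell, and with neuron markers as the scale 3 rose and 9 fell. Without vehicle replicate 1, 2 or 3 the rises numbered 2, 0 and 3 and the falls 0, 0 and 1, with 32 and 29 genes at an unadjusted p under 0.05 in the first and second of these fits. Without MS275 replicate 2 there were 21 rises and 10 falls, and without MS275 replicate 3 there were 4 and 1. Of the 13 rises 6 were in genes of vesicle retrieval, 4 in genes of dense core vesicles, the large vesicles that carry neuropeptides, and 1 in each of the other 3 lists.

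Among 32 genes of synaptic vesicle endocytosis 6 rose and none fell by edgeR, DESeq2 or limma voom. Over all genes, 5.10% rose and 5.89% fell by edgeR. Pacsin1 (syndapin I), which binds dynamin at the neck of budding vesicles, had 390, 415 and 416 CPM with MS275, against 340, 345 and 342 CPM with vehicle (0.25, SE 0.04, adjusted p = 0.00802). Ston1 (stonin 1), an endocytic adaptor, had 21.6, 25.4 and 21.8 CPM with MS275, against 17.9, 16.9 and 15.7 CPM with vehicle (0.45, SE 0.08, adjusted p = 0.0130). In both, the groups did not overlap. Cltb, a clathrin light chain, had 389, 388 and 426 CPM with MS275, against 341, 347 and 365 CPM with vehicle (0.19, SE 0.05, adjusted p = 0.0380), and Sh3glb2 (endophilin B2) was at 0.15 (SE 0.04, adjusted p = 0.0320). With neuron markers as the scale 1 of these genes rose and 2 fell, and with library totals alone 2 rose and 4 fell. Of all 16819 genes, 356 rose and 1485 fell on the neuron scale, and 680 and 1724 with library totals. The rises in this list numbered 2, 0 and 1 when vehicle replicate 1, 2 or 3 was left out, and 2 when MS275 replicate 3 was. Over all genes they were 196, 127 and 336, and 448 without MS275 replicate 3.

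Among 16 genes of dense core vesicles and peptide processing 4 rose and none fell by edgeR, where 5.10% of all genes rose and 5.89% fell. By DESeq2 6 rose and by limma voom 3, and the edgeR median was 0.12. Scg3 (secretogranin III), a granule matrix protein, had 964, 1033 and 1015 CPM with MS275, against 777, 828 and 881 CPM with vehicle (0.28, SE 0.05, adjusted p = 0.0131). Cpe, the carboxypeptidase that trims peptide precursors, had 893, 840 and 882 CPM with MS275, against 774, 773 and 790 CPM with vehicle (0.16, SE 0.04, adjusted p = 0.0312). Both were higher in every MS275 library. Scg2 (secretogranin II) was at 0.18 (SE 0.05, adjusted p = 0.0410) and Pcsk1n, which encodes an inhibitor of a peptide-cutting convertase, at 0.28 (SE 0.08, adjusted p = 0.0478). With neuron markers as the scale 0 of the 16 passed in edgeR and 4 had an unadjusted p under 0.05. On that scale 356 of all 16819 genes rose, where 858 did in the main fit. The rises numbered 0, 0 and 1 when vehicle replicate 1, 2 or 3 was left out, and 1 when MS275 replicate 3 was. Over all genes they numbered 196, 127 and 336 in the first of these fits, and 448 without MS275 replicate 3. With TMM scaling the neuron markers themselves had a median of 0.08, 11 of 19 lay above vehicle in every MS275 library and 1 (Elavl4) rose. Of all genes, 15.9% lay above in that way. The part of this neuron marker shift in the values above was not tested.

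The other 3 lists had 1 rise and 1 fall each, where 5.10% of all genes rose and 5.89% fell. Of 23 active zone scaffold genes Ppfia2 (liprin alpha 2) fell, with 42.4, 45.2 and 42.7 CPM under MS275, against 51.3, 54.0 and 51.4 CPM under vehicle (-0.27, SE 0.05, adjusted p = 0.0107). Its relative Ppfibp2 (liprin beta 2) rose, at 0.56 (SE 0.11, adjusted p = 0.0158). The list had 7 positive and 16 negative log2 fold changes and a median of -0.06. Of 30 SNARE regulators Sncb (beta-synuclein) rose at 0.25 (SE 0.07, adjusted p = 0.0418) and Txlna, a syntaxin-binding protein, fell by 0.15 on the log2 scale (SE 0.04, adjusted p = 0.0455). Of 19 vesicle membrane and transporter genes Slc17a8, the vesicular glutamate transporter VGLUT3, fell by 0.25 (SE 0.06, adjusted p = 0.0399). Sypl2, a synaptophysin relative of skeletal muscle, rose at 1.90 (SE 0.48, adjusted p = 0.0366), with 0.61, 0.38 and 0.35 CPM under MS275, against 0.15, 0.05 and 0.18 CPM under vehicle. The muscle marker sum was also higher in every MS275 library than in any vehicle library, and its part in Sypl2 was not tested. Without MS275 replicate 1, the library of the highest muscle sum, Sypl2 was at 1.62 (adjusted p = 0.0706), and the adjusted p was 0.0650 to 0.143 without MS275 replicate 3 or any 1 vehicle library.

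**Figure D4:**
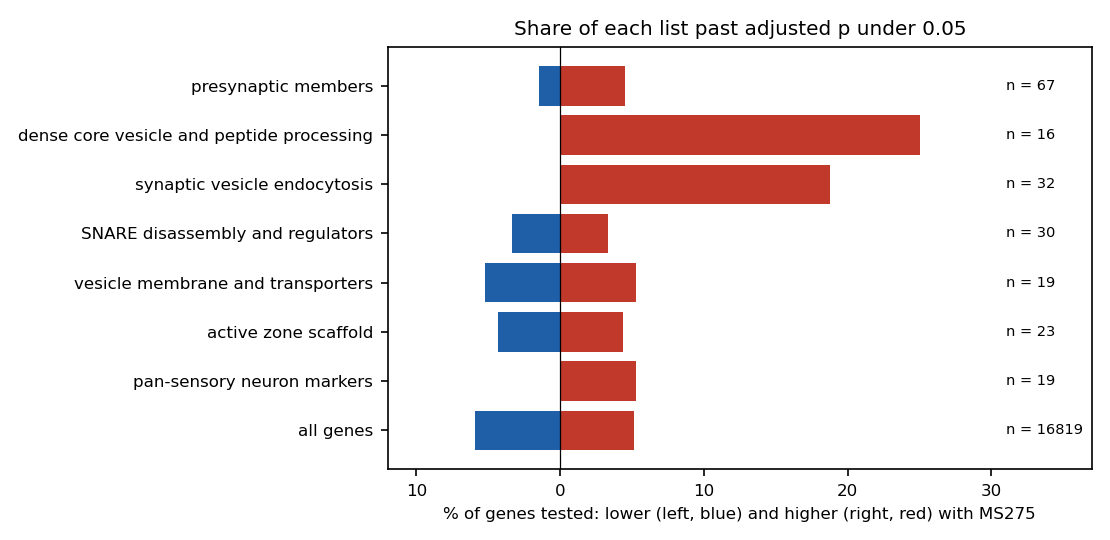
Share of tested genes that rose (red, right) or fell (blue, left) with MS275 at an adjusted p under 0.05, in % of the number tested (n), for the members, the 5 other presynaptic lists, the pan-sensory neuron markers and all genes. Dense core vesicle genes (4 of 16) and endocytosis genes (6 of 32) rose with none falling, and the 67 members had 3 higher and 1 lower. Over all genes, 5.10% rose and 5.89% fell. With neuron markers as the scale 0 of 16 and 1 of 32 rose, and 2 of the 32 fell. On that scale 356 of all 16819 genes rose and 1485 fell.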

How the data were processed

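RNA from 3 MS275 and 3 vehicle pools was read as whole-number counts per gene symbol, deposited raw by the authors. The submitters' processing notes name the build mm10 and, without their roles, FastQC 0.10.1, STAR 2.7.0, R 3.5.0, limma 3.38.3 and edgeR 3.24.3. The libraries were poly(A)-selected and strand-specific, per the labels' protocols, but the sources used here do not name the counter or its strandedness. Rows naming no gene (18.89% to 20.56% of a library's reads) were left out. ATAC regions were deposited as 1 list of combined replicates per treatment, with a score, the -log10 of q and a fold ratio per region, per the file layout. Their caller and depth are details not given in the sources used here.

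Tests used edgeR 4.0.16 under R 4.3.3 (counts as deposited, TMM, filterByExpr, quasi-likelihood test, treatment only, 2-sided, Benjamini-Hochberg over 16819 genes). The script was tested on simulated data. CPM used TMM-normalised library sizes, SE is the log2 fold change over the square root of F, and intervals cover 95%. The biological coefficient of variation was 8.62%. Library depth of 34992533 to 60370523 reads sets the precision. The design text calls the triplicates biological, and same-numbered libraries were not treated as pairs in the main fit. Coordinates and starts came from RefSeq GRCm38.p6, the assembly of mm10, which matched 15982 of 16819 genes (95.0%). Alternatives were RLE factors, library totals, other filters, a replicate block, neuron marker scaling, muscle genes left out, DESeq2 1.42.0, limma 3.58.1 voom, each library left out and other ATAC thresholds.

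Members and lists were chosen with earlier results of these data known. Named were called members, 19 core fusion genes, up to 3 members of smallest p per role, the members with the fewest reads, and up to 4 called genes per other list; a few genes so chosen are not reported here. The note on entries within 20 kb was added after the data were seen.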

Additional observations from a re-analysis of the deposited data

How the results depend on the processing

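Sv2a passed in 12, Syt7 in 11, Syt17 in 12 and Vamp3 in 12 of 15 alternatives, always with the same sign. RLE factors, a filter of 10 reads in 3 libraries, muscle genes left out and limma voom kept the members at 3 higher and 1 lower. The count was 5 higher and 2 lower with no filter beyond 1 read, 3 and 4 with library totals alone, 1 and 3 with neuron markers as the scale, and 5 and 1 with DESeq2. Leaving out 1 library gave 0 to 6 higher and 0 to 3 lower members, 127 to 1388 higher and 134 to 1375 lower genes in all, and 0 to 21 higher and 0 to 10 lower genes in the 5 other lists. All genes stood at 356 higher and 1485 lower with neuron markers as the scale and at 680 and 1724 with library totals. The 5 lists stood at 5 higher and 14 lower with library totals, at 3 and 9 with neuron markers as the scale, and at 17 and 6 with no filter. The median of the members was 0.000374 with library totals (all genes -0.0354) and -0.0486 with neuron markers as the scale (all genes -0.0816). That scale turned negative Vamp1 (-0.0486), Vamp2 (-0.0501), Syt1 (-0.0576), Syt2 (-0.0315), Syn1 (-0.0564), Sv2b (-0.0344), Rab3a (-0.0311), Rab3d (-0.0437), Cplx1 (-0.0237), Cplx2 (-0.0312), Stx7 (-0.0327) and Unc13d (-0.0054). Library totals turned negative Vamp2 (-0.0037), Syt1 (-0.0112) and Syn1 (-0.0079), and RLE factors put Snap91 at 0.0008. Signs also changed when 1 library was left out for Syt1 (-0.0145 to 0.0523), Snap91 (-0.0369 to 0.0556), Stxbp6 (-0.0658 to 0.0217), Syt10 (-0.5223 to 0.0574) and Unc13d (-0.1015 to 0.1874). Apart from the fewer libraries left, the cause of these changes was not tested. In their deviations from the group means, same-numbered libraries correlated at 0.019, 0.111 and -0.061, and other pairs at -0.149 to 0.113. With 3 libraries per group these values cannot decide whether the numbers mark pairs. The replicate block gave 4 higher members and 1 lower, adding Snap47, and 981 higher and 1107 lower genes in all. Depth limits the genes of few reads, such as Syt10 and Syt17. The authors' region lists allow no replicate check, and ATAC windows of 500 and 2500 bp, or an overlap of at least 50% of the shorter region, gave the same 63, 64 and 63 members.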
